A study of Homo sapiens with 7 samples.

Results

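The regions described are the MYCN binding sites of Kelly cells in which the peak caller listed at least 4 summits at different positions inside 1 interval. Kelly is an established human neuroblastoma cell line in which MYCN is amplified and ALK, the receptor tyrosine kinase that TAE684 inhibits, is mutated and active. Occupancy was profiled by ChIP-seq, the sequencing of DNA that an antibody to MYCN pulls down from crosslinked chromatin. The sensitive cells are described by 2 MYCN ChIP samples and 1 input sample, all given DMSO, the vehicle, for 48 h. The resistant cells have 2 MYCN ChIP samples and 2 input samples, all given TAE684 at 1 µM for 48 h. Input, chromatin that skipped the antibody step, serves as background. The labels describe 1 line in each state and name no separate clone or passage. Each state came with 1 peak list for its 2 ChIP samples, and errors between replicates cannot be given. All 64657 rows of the list for the resistant cells were identical to those of the list for the sensitive cells and carried its peak names, so everything below refers to the sensitive cells and nothing is compared between states.

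Rows that shared chromosome, start and end were taken as 1 interval, and each row as 1 summit, the position of locally highest signal. Intervals with 4 or more summits numbered 1254 of 47765, or 2.63% (exact binomial 95% CI 2.48 to 2.77). They held 5659 of the 64657 summits (8.75%) and covered 1.90 Mb of the 19.6 Mb in all intervals (9.66%). Of the 1254 intervals, 843 had 4 summits, 256 had 5, 107 had 6, 27 had 7, 16 had 8, 2 had 9 and 3 had 10. They are called wide intervals here, although they were chosen by summits and not by width, and 83 of them (6.62%) were under 1000 bp. They are set beside the 36497 intervals with a single summit on the same 23 chromosomes. The wide intervals were chosen by the number of summits in this list, and width, fold enrichment and p-value come from the same signal, so all differences are descriptions and none was tested. Intervals given for shares cover counting error only, since neighbouring sites and reads without molecular identifiers are not independent.

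MYCN belongs to the basic helix-loop-helix factors and binds DNA in a dimer with MAX, with highest affinity for the E-box CACGTG. When MYCN is abundant, as in MYCN-amplified neuroblastoma, it also occupies variant E-boxes of the form CANNTG and the open chromatin of active promoters and enhancers. Broad occupancy around start sites and at enhancers of cell identity genes is a known feature of such cells.

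The lists carry no gene names, and no sequence or annotation of their build, hg19, was used here. Intervals are therefore named by chromosome and by start and end on hg19, counted from 1. Which genes, start sites, exons or E-boxes they hold was not analysed here, and no sequence is printed.

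Wide intervals were several times as broad as single-summit intervals, although the ranges overlapped. Their median width was 1452 bp, with quartiles of 1237 and 1736 bp and a range of 407 to 3748 bp. Single-summit intervals had a median of 229 bp, quartiles of 177 and 327 bp and a range of 140 to 1717 bp. The median was higher in the wide intervals on each of the 23 chromosomes, where it ran from 1350 bp on chromosome 8 to 1629 bp on chromosome 13. Only 1 single-summit interval of 36497 was as wide as the median wide interval. Among the 142 intervals of at least 2000 bp, 139 had 4 or more summits (97.9%), against 1032 of 3122 from 1000 to under 2000 bp (33.1%). The rule sits on a continuum. Intervals with 3 summits, just outside it, had a median width of 1016 bp and a median highest fold enrichment of 7.90, and those with 4 had 1345 bp and 8.63.

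**Figure D1:**
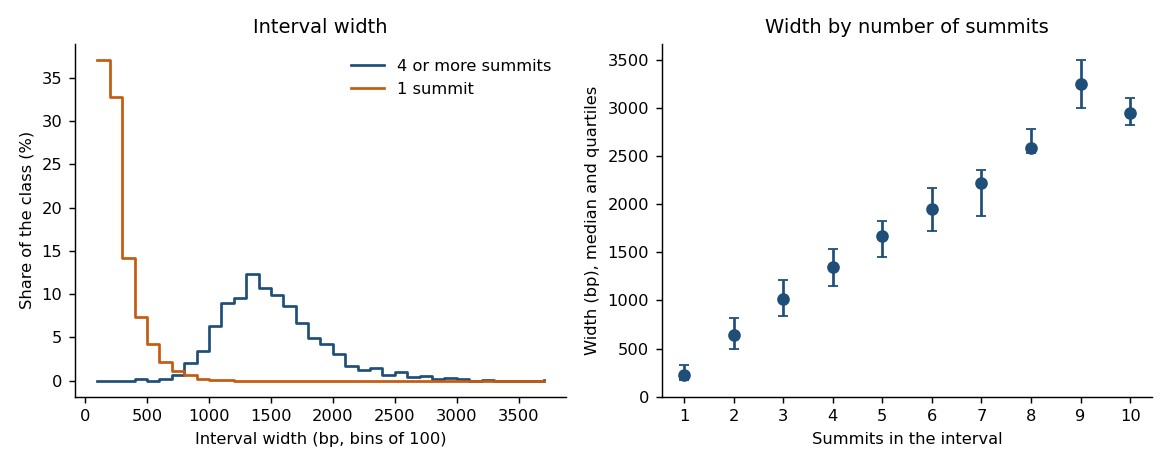
Left, share of intervals (%) by width in bins of 100 bp, for intervals with 4 or more summits and with 1 summit. Right, median width (bp) by number of summits, bars from the first to the third quartile, rising from 229 bp with 1 summit to 2586 bp with 8, where the 9- and 10-summit points stand for 2 and 3 intervals.

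Wide intervals were longer, not denser, than intervals with 2 or 3 summits. The median width per summit was 333 bp in wide intervals, 338 bp in those with 3 summits and 321 bp in those with 2. In single-summit intervals it is the width itself, with a median of 229 bp. The 4405 distances between neighbouring summits of a wide interval had a median of 306 bp, a first quartile of 236 bp and a range of 2 to 979 bp. Intervals with 3 summits had a median of 305 bp and intervals with 2 summits 288 bp. Within the wide class the median was 311 bp with 4 summits, 301.5 bp with 5, 306 bp with 6, 281 bp with 7 and 298 bp with 8. Of the distances, 62.5% lay between 200 and 400 bp, 3.04% were under 140 bp and 9.94% were over 500 bp. Medians by chromosome ran from 270 bp on chromosomes 14 and X to 332 bp on chromosome 4. The median from the outer summit to the interval's edge was 155 bp on the left and 158.5 bp on the right. Summits of different neighbouring intervals lay much farther apart, with a median of 17.9 kb. How far a smallest distance between summits is set by the peak caller was not tested.

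**Figure D2:**
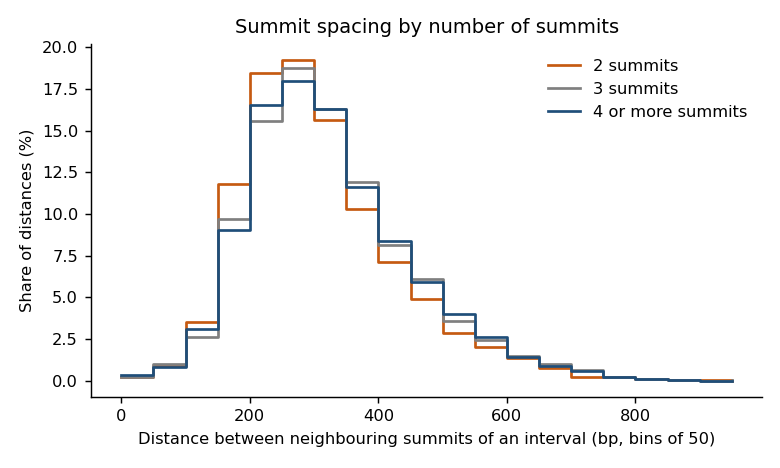
Share of distances (%) between neighbouring summits of an interval, in bins of 50 bp, for intervals with 2, 3 and 4 or more summits. The curves lie almost on each other, with medians of 288, 305 and 306 bp.

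The summits of a wide interval differed in strength, and most intervals had several at 50% or more of their strongest. The authors' fold enrichment compares the ChIP pileup at a summit with the local background. The highest fold of a wide interval had a median of 8.78 and a range of 3.03 to 35.0, and the lowest fold a median of 3.26 and a range of 1.89 to 10.97. Their ratio, lowest over highest, had a median of 0.389, against 0.499 in intervals with 3 summits and 0.674 in those with 2. The second strongest summit reached a median of 0.789 of the strongest, and 24.8% of the intervals had a second summit at 90% or more of the first. A lone strong summit, with every other summit under 50% of it, was found in 145 intervals (11.6%, 95% CI 9.84 to 13.5). In 332 intervals (26.5%) every summit reached 50%. The typical wide interval had 3 summits at or above 50% of its strongest. This mark is set by each interval's own strongest summit, and every summit had passed the caller's threshold. An interval with a low highest fold can therefore reach it with weak summits.

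The strongest summit was spread nearly evenly over the positions in intervals with 4 or 5 summits. In the 843 intervals with 4 summits it was the first from the left in 191, the second in 207, the third in 216 and the last in 229. In the 256 intervals with 5 summits the numbers were 57, 48, 57, 42 and 52. The weakest summit was more often an outer one, in 518 of 843 intervals with 4 summits (61.4%, 95% CI 58.1 to 64.8), where outer summits make up 50% of the summits. Outer summits had a median fold of 4.94 and inner summits 5.52. Strands of genes were not used, so left and right carry no direction of transcription.

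The depth behind a fold was recovered from the fold and p-value together, as ChIP fragments over the summit and a local background in input fragments. This background is the caller's local estimate and often not a whole number, so it is no count of input at the summit. At its strongest summit a wide interval had a median of 141 ChIP fragments (range 23 to 280) over a background of 9 (range 1.61 to 23). A single-summit interval had 53 (range 13 to 280) over 6 (range 1.61 to 126). The background was at its lowest value, 1.61, in 3 of 1254 wide intervals (0.239%, 95% CI 0.0494 to 0.697) and in 4028 of 36497 single-summit intervals (11.04%, 95% CI 10.7 to 11.4). The local background was thus higher at the strongest summit of wide intervals than of single-summit intervals. This was not particular to wide intervals. Intervals with 3 summits had a median of 124.5 ChIP fragments over a background of 9, and those with 2 had 98 over 8. The part of input in the width was not tested. Within a wide interval the highest background was a median of 1.71 times the lowest. Outer summits had a median of 74 ChIP fragments and inner summits 89, over backgrounds of 9 and 9.66.

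The share of wide intervals rose and fell with fold enrichment but rose to a plateau with the number of ChIP fragments. Among intervals with a highest fold under 4, 0.182% were wide. The share was 3.13% at 6 to 8 and 7.23% at 10 to 15 (95% CI 6.56 to 7.95), then 5.55% at 15 to 20 (4.33 to 6.996) and 1.66% at 20 to 30 (0.669 to 3.39). With a fold of 30 or more, 1 of 75 intervals was wide (1.33%, 0.0338 to 7.21). By ChIP fragments at the strongest summit the share was 0.116% under 40, 3.62% from 80 to under 120, 6.75% from 120 to under 160, 9.78% from 160 to under 200 (95% CI 8.71 to 10.9) and 8.79% from 200 to under 240. It was 10.1% at 240 or more (7.85 to 12.6). No summit of the list held more than 280 ChIP fragments, a number reached in wide, single-summit and 2-summit intervals alike. Whether this upper end bears on the plateau or on the fall with fold was not tested. By background the share was highest at 8 to 12 input fragments, with 4.42%, and it was 0.151% under 2. Over the whole list 2.63% of intervals were wide, so most intervals of any bin were not. The confidence intervals at a fold of 20 to 30 and of 30 or more include that share. The fold divides by the background, so these groupings are not independent.

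**Figure D3:**
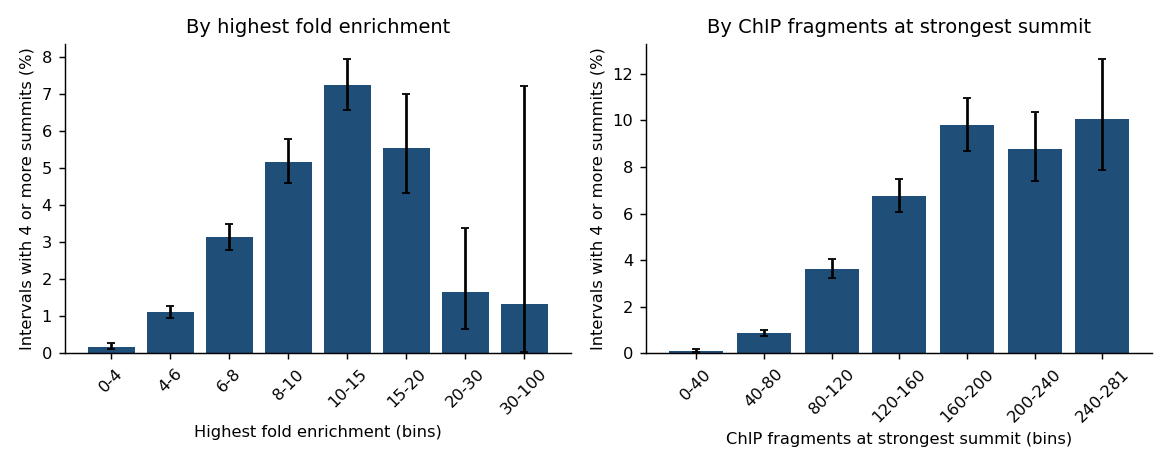
Share of intervals with 4 or more summits (%) among all intervals, by highest fold enrichment (left) and by ChIP fragments at the strongest summit (right), in bins that include their lower but not their upper bound. Error bars are exact 95% binomial intervals, and the share peaks at 7.23% for a fold of 10 to 15.

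The 5 intervals with most summits, 3 with 10 and 2 with 9, showed different profiles along their length. The interval on chromosome 17 from 42295693 to 42298946 was 3254 bp wide and had 10 summits. Their fold enrichments from left to right were 12.6, 4.95, 2.22, 6.01, 6.46, 6.02, 4.92, 2.76, 4.37 and 3.22. The strongest, with 234 ChIP fragments, stood at the left end, 653 bp from the next, and the others formed a lower series.

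A stretch of chromosome 2 from 5831176 to 5834119 also carried 10 summits. Their fold enrichments were 4.31, 3.13, 9.04, 10.2, 6.76, 7.61, 5.36, 4.19, 3.13 and 4.39, with the crest left of the centre, at 9.04 and 10.2, and lower values on both sides. A second wide interval with 4 summits followed after 2002 bp, ended at 5837725 and reached 8.43.

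The third interval with 10 summits, on chromosome 3 from 128206602 to 128209306, was the flattest of the intervals with 9 or more. Its fold enrichments ran 3.77, 4.02, 4.17, 3.92, 2.49, 3.54, 2.78, 2.73, 3.72 and 3.53. All 10 lay between 2.49 and 4.17, and the background at the strongest was 18 input fragments, against 11 at the strongest summit of the interval on chromosome 17 and 9.38 at that on chromosome 2. The ChIP fragments at these 10 summits ran from 70 to 133.

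The widest interval of the list spanned 3748 bp on chromosome 2 from 43451285 to 43455032. Its 9 summits had fold enrichments of 4.39, 3.71, 3.49, 3.28, 7.45, 4.83, 6.21, 8.04 and 2.56. The mean distance between them was 424 bp, the longest among intervals with 8 or more summits. The strongest held 269 ChIP fragments over a background of 20.6. The other interval with 9 summits lay on chromosome 12 from 122459343 to 122462087. Its fold enrichments were 3.44, 7.04, 4.29, 8.71, 4.14, 3.88, 3.31, 4.76 and 3.33, so 2 summits stood above the rest, both left of the centre.

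**Figure D4:**
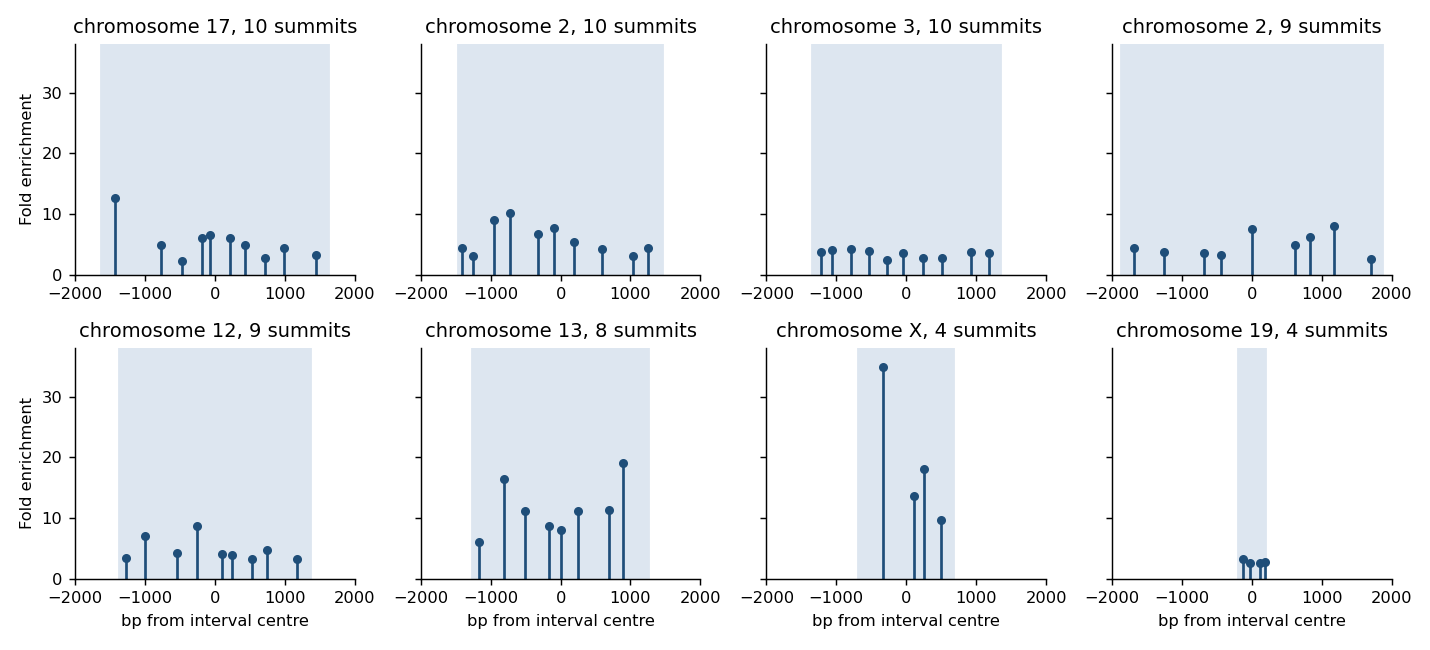
Fold enrichment at each summit (points) against its distance from the interval's centre (bp), with the interval shaded, in the 5 intervals with 9 or 10 summits, the most enriched with 8, the most enriched of all wide intervals (chromosome X) and the narrowest (chromosome 19). Summits on chromosome 3 are low and even (2.49 to 4.17), while on chromosome X the leftmost of 4 reaches 35.0.

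The 16 intervals with 8 summits were named after their values were seen. The most enriched lay on chromosome 13 from 91999217 to 92001741. Its fold enrichments were 6.11, 16.4, 11.1, 8.70, 8.002, 11.1, 11.4 and 18.996, so all 8 were above 6 and the 2 strongest stood near opposite ends. The nearest other interval lay 48954 bp away.

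Others of the 16 had their strong summits in different places. On chromosome 6 from 20401967 to 20404500 the fold enrichments were 10.7, 4.97, 6.01, 3.53, 4.02, 13.3, 2.75 and 4.10, with the 2 strong summits 1444 bp apart. On chromosome X from 40034152 to 40036682 they were 11.1, 10.96, 6.45, 8.69, 9.16, 3.36, 11.4 and 7.58, above 6 at all but 1 summit. On chromosome 20 from 57465245 to 57467991 they were 5.81, 4.15, 7.86, 8.41, 5.58, 7.46, 7.76 and 3.92, and no summit stood far above the others. On chromosome 10 from 8091443 to 8094310 they were 3.70, 4.27, 4.01, 4.11, 3.54, 4.39, 2.59 and 11.8, a low series with 1 strong summit at the right end. That summit held 197 ChIP fragments, and the other 7 held 50 to 79.

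The other 11 intervals with 8 summits reached a highest fold of 5.94 to 13.4. The highest of these lay on chromosome 5 from 107005762 to 107008845, where the fold enrichments were 4.36, 9.93, 6.67, 2.64, 2.61, 2.35, 9.09 and 13.4. The strong summits were the second and the last 2, and the 3 before those last 2 held only 32 to 35 ChIP fragments. An interval on chromosome 6 from 12010974 to 12013538 had the fewest ChIP fragments at the strongest summit of all 16, 65 over a background of 3, and reached 10.7. Its second summit held 143 over a background of 9 and reached 9.27, so the order by fold was not the order by fragments. The lowest lay on chromosome 1 from 53791716 to 53794644, with 5.94 over a background of 16.

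Among the 10 widest intervals, 4 had fewer than 8 summits. The first, on chromosome 13 from 110436866 to 110439958, had 7 summits over 3093 bp and a highest fold of 11.1. The second, on chromosome 16 from 4321107 to 4324181, had 6 summits over 3075 bp, with fold enrichments of 12.7, 11.5, 10.9, 14.4, 7.46 and 4.11. Another on chromosome 16, from 29816558 to 29819546, had 6 summits and reached 12.4. The last, on chromosome 22 from 50353535 to 50356439, had 6 summits over 2905 bp and reached 9.56. The mean summit distance in these 4 was 382 to 530 bp, and the median of all distances in wide intervals was 306 bp. A long distance follows largely from the choice of very wide intervals with fewer summits.

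The 10 wide intervals of highest fold were of ordinary width and summit number for the class. Their highest folds ran from 19.4 to 35.0, they were 1173 to 1665 bp wide, and 9 had 4 summits and 1 had 5. In the whole class 70.0% were no wider than 1665 bp and 87.6% had 4 or 5 summits. The first lay on chromosome X between 2381934 and 2383298, and its summits had folds of 34.97, 13.6, 18.1 and 9.74 over a background of 2 input fragments at each. On chromosome 9 from 96927829 to 96929493 the 5 summits had 3.94, 14.3, 7.50, 27.9 and 16.3. On chromosome 18 from 60986893 to 60988343 the folds were 3.46, 7.37, 25.7 and 11.9, and on chromosome 5 from 170814377 to 170815834 they were 11.1, 5.15, 6.01 and 25.5. In both, 1 summit was more than 2 times as enriched as any other. The other 6, on chromosomes 1, 4, 5, 11, 16 and X, reached 19.8, 22.8, 21.4, 21.5, 19.4 and 20.6. Backgrounds at these 10 strongest summits were 2 to 8 input fragments, and 39.4% of the class had a background of at most 8. The fold divides by the background.

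At the other extreme, the 5 wide intervals of lowest highest fold reached 3.03 to 3.39 with 23 to 61 ChIP fragments. Both the lowest, on chromosome 19 from 21324766 to 21325250, and the narrowest, on chromosome 19 from 19753757 to 19754163, were among them. The narrowest packed 4 summits into 407 bp, at distances of 102, 146 and 66 bp, with fold enrichments of 3.20, 2.68, 2.54 and 2.77 and 36 to 39 ChIP fragments each. The 5 intervals with the shortest mean summit distance, 105 to 146 bp, had a highest fold of 3.03 to 4.77, and their strongest summits held 23 to 66 ChIP fragments.

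Wide intervals more often had another interval very close by than single-summit intervals, as did intervals with 2 or 3 summits, and less often within 10 kb. Another interval lay within 500 bp of 366 wide intervals (29.2%, 95% CI 26.7 to 31.8) and of 21.6% of single-summit intervals (21.2 to 22.0). The share was 27.9% with 2 summits and 29.0% with 3, so it was not particular to the wide intervals. The share was higher for wide intervals on 21 of 23 chromosomes. Within 5 kb the shares were 47.2% and 46.8%. Within 10 kb they were 56.4% (53.6 to 59.1) and 59.6% (59.1 to 60.1), with the wide intervals lower on 13 of 23 chromosomes and higher on the other 10. Within 10 kb the share was 61.4% with 2 summits and 57.9% with 3. No interval within 50 kb was found for 15.8% of wide and 11.8% of single-summit intervals. The median distance to the nearest interval was 6112 bp and 5992 bp. No edges of intervals in either class were closer than 76 bp.

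Within 1 kb of wide intervals lay 496 intervals, of which 353 had 1 summit (71.2%) and 8 were wide themselves (1.61%). Among all intervals of the list these shares were 76.4% and 2.63%. Their median width was 332 bp and their median highest fold 4.99, against 8.43 for the wide intervals beside them. Over the whole list the median highest fold was 5.40 with 1 summit, 6.98 with 2, 7.90 with 3 and 8.78 in wide intervals. The 496 intervals mix these classes, so none of these medians is a matched reference for them. In 381 of 489 pairs (77.9%) of a wide interval and a neighbour of another class, the neighbour had the lower highest fold. The same share for wide intervals paired with intervals elsewhere was not computed. The 77.9% is therefore not shown to be particular to neighbours. On both sides within 1 kb an interval was found for 4.78% of wide and 3.11% of single-summit intervals.

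**Figure D5:**
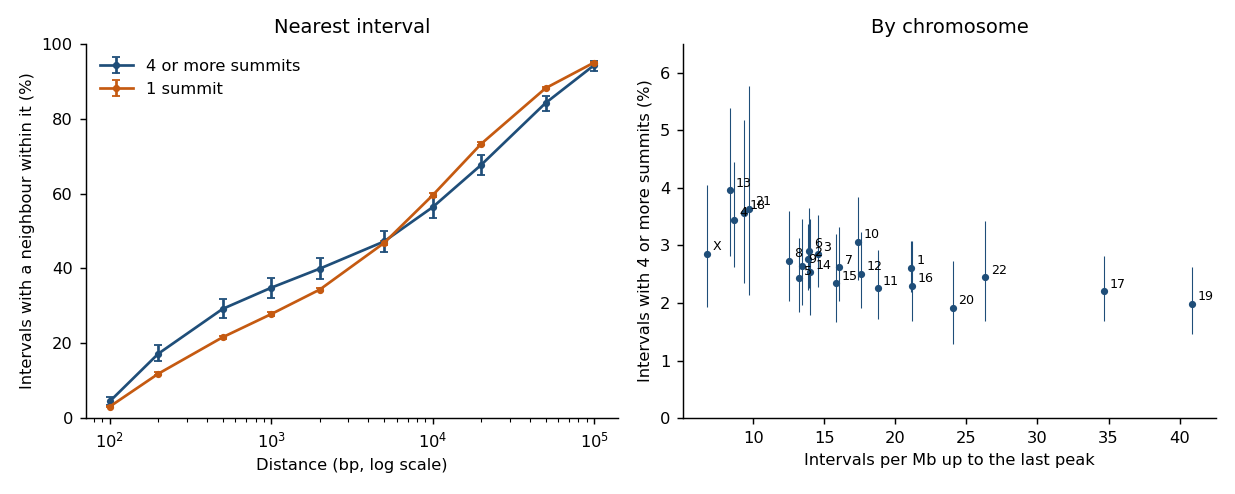
Left, share of intervals (%) with another interval within a distance (bp, log axis), for both classes, with exact 95% binomial intervals; the curves cross between 5 and 10 kb. Right, share of intervals with 4 or more summits (%) against intervals per Mb for each of 23 chromosomes, from 3.96% on chromosome 13 to 1.91% on chromosome 20.

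Wide intervals made up 2.63% of the list, and most had no other wide interval close by. With runs defined by gaps of at most 20 kb, 1198 of 1254 had no wide interval beside them, and 56 fell into 25 pairs and 2 runs of 3. An interval of any class lay within 20 kb of 67.7% of wide and 73.3% of single-summit intervals. Whether wide intervals were grouped more or less than their number implies was not tested. Both runs of 3 lay on chromosome X. The first, from 39956616 to 39969286, held 14 summits, and the second, from 40012907 to 40036682, held 18 and included the interval with 8 summits described above. The gap between them was 43.6 kb, so these runs held 6 of the 30 wide intervals of chromosome X. Their highest fold enrichments ran from 6.10 to 15.4, and the highest was the first interval of the second run, with 15.4, 8.29, 6.69, 3.38 and 10.2. The most enriched of all wide intervals, also on chromosome X, was 1 of a pair, and its partner, from 2375236 to 2376218, reached 17.6. Pairs named after their values were seen include 1 on chromosome 17 from 2295821 to 2305570, with highest folds of 16.5 and 14.6, and 1 on chromosome 10 from 31607434 to 31610117, with 5.22 and 6.19.

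Chromosomes with few MYCN intervals tended to have a larger share of wide ones, but how far depended on the number of summits required. Wide intervals made up 3.96% of the 960 intervals on chromosome 13 (95% CI 2.82 to 5.39), 3.64% on chromosome 21, 3.57% on chromosome 18 and 3.45% on chromosome 4. They made up 1.91% on chromosome 20 (1.29 to 2.74), 1.99% on chromosome 19 (1.47 to 2.63) and 2.204% on chromosome 17. Most of these confidence intervals overlap. Over the 23 chromosomes the share and the number of intervals per Mb had a Spearman rho of -0.80 and a Pearson r of -0.71, a description without a test, since the number of intervals is part of both. With 3 or more summits required rho was -0.43 and with 5 or more -0.42, settings chosen after seeing the data. Chromosomes 17 and 19 together held 8.77% of wide and 10.7% of single-summit intervals. That direction turned with 3 or more summits, at 11.6%, and with 5 or more, at 11.7%. Per Mb up to the last peak, wide intervals were still most frequent on chromosomes 19 (0.812) and 17 (0.764) and least frequent on X (0.193), with 0.413 over all 23. The largest numbers in a 1-Mb stretch were 6 on chromosome 17 from 79 to 80 Mb, where 122 intervals lay, and 6 on chromosome 2 from 242 to 243 Mb, where only 44 lay. Median highest fold ran from 7.08 on chromosome 22 to 10.4 on chromosome 18, and the median background at the strongest summit was 12.5 and 5 input fragments there. Copy number, which raises ChIP and input alike, was not accounted for.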

How the data were processed

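MYCN ChIP-seq of Kelly cells was deposited as 1 hg19 peak list per state, with 2 ChIP samples behind each. Per the submitters' processing notes the tools were MACS2 2.1.1, deepTools 2.2.4, Picard, SAMtools 1.3.1 and STAR 2.5.1b. Neither labels nor file headers state their settings, the handling of duplicates or how samples were combined. Each deposited row holds a summit offset, a fold enrichment ratio, a −log10 p-value, a −log10 q-value and an integer score, all made by the authors' peak caller. The score was not used. Positions are counted from 1. Numbers of summits depend on how the caller splits an interval, and no list of a single sample was analysed here, so precision between samples is unknown.

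ChIP fragments and background were solved from fold, (scaled pileup + 1)/(background + 1), and the Poisson p-value of the pileup rounded down. Only whole numbers of fragments were searched. With a scale of 0.641, 1 of them reproduced −log10 p within 0.0005 at 64657 of 64657 summits, with 24 ambiguous. The solution was tested on simulated data: at scales of 0.62, 0.75 and 0.9 it returned the exact number at 1433 of 1457, 1439 of 1439 and 1385 of 1385 summits.

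Shares carry exact 95% binomial intervals. No test was made. Intervals named are those with the most summits or 1 fewer, the 10 widest, the 10 highest and 5 lowest by highest fold, the 5 with the shortest mean summit distance and runs of 3; others are said to be chosen after their values were seen. The members, lists and rules were chosen with earlier results of these data known. Genes, start sites, E-boxes and GC content of the intervals were not analysed here, although planned, since no hg19 sequence or annotation was used. Alternatives were the number of summits, thresholds on q and fold, joined intervals, neighbour distances and left-out chromosomes. Python 3.11.15, numpy 2.4.6, pandas 2.3.3, scipy 1.17.1 and matplotlib 3.10.9 were used.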

Additional observations from a re-analysis of the deposited data

How the results depend on the processing

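No paired analysis was possible because the peak lists merge the replicates, and none can be removed from a merged list. Most values move with the required number of summits. With 3 or more summits there were 3728 intervals, with a median width of 1136 bp and a median highest fold of 8.18, and chromosomes 17 and 19 held 11.6% of them, against 8.77% of the intervals reported and 10.7% of single-summit intervals. With 5 or more there were 411, at 1760 bp, a fold of 9.19, a summit distance of 300.0 bp and 11.7%, so the share on these chromosomes turned from below to above that of single-summit intervals in both. A −log10 q minimum of 10 per summit left 563 intervals, at 1630 bp, a distance of 325 bp and a fold of 9.52. Counting only summits with a fold of at least 5 left 270, at 1695 bp, 330.0 bp and 10.9. The difference in the share with a neighbour within 10 kb, wide minus single-summit, was -3.18 percentage points. It reversed to 5.59 within 2 kb and to 7.58 within 500 bp, the latter chosen after seeing the data, and was -3.97 within 50 kb, -2.35 for single-summit neighbours only and -1.17 with 5 or more summits. Joining intervals less than 100 bp apart gave 1398 intervals and moved the other values by less than their counting intervals, as did leaving out chromosomes 17 and 19 for width, distance and neighbours. Measures added after seeing the data were the ChIP fragments at the strongest summit, a median of 141, and the distance from first to last summit, 1082 bp. The sequence alternative was not run, for want of hg19 sequence. No summit had under 13 fragments, and weak summits of an interval below the caller's threshold cannot be counted.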
